A study of Mus musculus with 16 samples.

Results

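Genes of fatty acid activation and mitochondrial oxidation were followed in mouse ventricular myocardium after endotoxin, with and without the adenosine 2A receptor (A2AR). Of 35 genes listed for the pathway, 32 had a probe set (a group of array probes for a transcript) annotated with that gene's symbol alone, out of 18193 genes measured in this way. A gene with several such probe sets was represented by the set whose mean over all 16 arrays was highest. The muscle carnitine palmitoyltransferase Cpt1b had only a probe set that it shared with another symbol, and Acsl1 and Ucp2 had none annotated with their symbol alone, so these 3 members have no value here.

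Ventricular RNA from male mice on a CD1 background, 14 weeks old, was hybridised to Affymetrix arrays, 1 array per sample and 4 arrays per group. A2AR knockout mice came from a sub-colony of the originally described line, and the wild-type mice were their littermates. Each mouse received 1 intraperitoneal injection, either sterile saline or 20 mg/kg of lipopolysaccharide (LPS, endotoxin from E. coli), and the hearts were sampled at 24 h. This gives 4 groups, saline and LPS in each genotype. The labels name no tissue restriction of the deletion. They also do not say that each array holds a separate animal, and p-values then measure only the spread between these samples. The targeted receptor's transcript was not analysed here, so the genotype of each array rests on its label. Values are log2 intensities, and the linear fold is given beside the main changes.

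Long-chain fatty acids enter the heart cell through carriers such as Slc27a1, bind the cytosolic carrier Fabp3, and are activated to acyl-CoA by long-chain acyl-CoA synthetases (Acsl). The acyl group is passed to carnitine at the outer mitochondrial membrane, crosses the inner membrane on Slc25a20 and returns to CoA through Cpt2, after which repeated rounds of dehydrogenation, hydration, dehydrogenation and thiolysis shorten the chain. Thioesterases (Acot) undo activation by releasing the free acid, and malonyl-CoA, made in muscle by Acacb and removed by Mlycd, inhibits entry at carnitine palmitoyltransferase 1. The working heart draws much of its ATP from this pathway.

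Arrays were alike in their overall level, with medians from 4.62 to 4.67 and a median of 4.64 over all values. Cardiomyocyte markers were high on every array, with an 8-gene mean of 13.85 to 13.95 after saline and 13.39 to 13.78 after LPS. The list does not separate ventricle from atrium, and its marker Nppa is also on the atrium list. Of the 8 markers, 7 were called lower with LPS in the mean of both genotypes. In bulk tissue, fewer cells of a type and less RNA per cell cannot be told apart, which applies to every change reported here. The 5 measured adipocyte markers averaged 6.55 to 7.02 in wild-type and 5.60 to 6.24 in knockout hearts after saline, without overlap. After LPS they averaged 3.81 to 5.12 and 3.55 to 4.15, with Cidec and Lep under the median of all values. The 5 measured neutrophil markers averaged 3.89 to 4.17 after saline and 6.03 to 7.37 after LPS, with Mpo and Camp under that median. Other marker means also differed between LPS and saline. The difference in wild-type and knockout hearts was -1.41 and -1.10 for smooth muscle and pericytes, and -0.76 and -0.77 for fibroblasts. It was -0.78 and -0.97 for atrium, -0.45 and -0.59 for endothelium, -0.53 and -0.29 for brown adipocytes, and 0.01 and -0.34 for macrophages. Of the 5 brown adipocyte markers, Ucp1 and Elovl3 lay under the median of all values, which leaves Cidea, Cox8b and Cox7a1 above it. The 5 atrium markers averaged 11.13 to 11.96 after saline and 10.66 to 11.20 after LPS, with none under that median. Wild-type saline arrays 1 and 4 had skeletal muscle marker means of 6.36 and 7.71, against 4.46 to 4.80 on the other 14 arrays, with 6 of the 10 markers (Myh1, Myh4, Tnnt3, Actn3, Pvalb and Myh8) under the median of all values. Wild-type LPS array 4 stood apart from its group, with the lowest neutrophil mean of the LPS arrays (6.03) and the highest adipocyte mean among them (5.12). Its macrophage (9.02) and endothelium (8.97) means were the highest of all arrays. Its fibroblast mean (10.15) was the highest of the LPS arrays and lay just under the saline arrays (10.16 to 10.32). The part of these differences in the member results was not tested, and results that rest on these arrays are given with and without them.

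With LPS, the synthetase Acsl5, the thioesterase Acot1 and the mitochondrial carrier Ucp3 rose by 2.12-fold to 3.93-fold in both genotypes. For Ucp3, however, wild-type LPS array 4 lay below every wild-type saline array. The thioesterase Acot13 fell by 1.44-fold and 1.51-fold and the dehydrogenase Hadh by 1.26-fold and 1.27-fold. Hadh was the only enzyme of the oxidation steps called lower in wild-type hearts. In wild-type hearts, 6 of 32 members passed the test (adjusted p under 0.05), 4 higher and 2 lower, which is 18.8% of members against 20.9% of all genes (9.28% higher and 11.6% lower). In knockout hearts, 13 passed, 6 higher and 7 lower, which is 40.6% against 26.1% of all genes (11.4% higher and 14.7% lower). For the mean of both LPS effects, 14 passed, 6 higher and 8 lower, which is 43.8% against 34.9% of all genes (15.4% higher and 19.5% lower). The wild-type share lay near that of all genes. Most members lay above the median of all values, unlike many of the genes they are set against. With only genes above that median tested, which leaves out Acsl3, the wild-type, knockout and mean comparisons called 6, 14 and 15 members. The shares of those brighter genes called were 33.2%, 40.6% and 52%. The knockout count fell to 10 members without knockout LPS array 2, where 23.3% of all genes were called. It rose to 15, 5 higher and 10 lower, without knockout LPS array 4, where 27.9% of all genes were called. Fabp3, Acacb and Acadvl were then added and Eci2 was lost. The wild-type count rose to 12 without wild-type LPS array 4, where 26.9% of all genes were called. Without wild-type saline arrays 1 and 4 together, the counts were 3 in wild-type hearts, 10 in knockout hearts and 9 for the mean. The shares of all genes called were then 11.3%, 23% and 28.2%. The wild-type calls of Acot1, Hadh and Ucp3 and the knockout calls of Acadm, Crat and Eci1 were lost. The mean lost Acacb (adjusted p = 0.0794), Acadm (0.0828), Crat (0.0694), Eci1 (0.0504) and Slc25a20 (0.0546). The median log2 change of the members was -0.08 in the wild type and -0.19 in the knockout, against -0.00 and -0.02 over all genes, and 20 and 22 of the 32 had a negative change, against 50.7% and 53.3% of all genes. Acsl5, Eci2, Acot1 and Ucp3 rose and Hadh and Acot13 fell in both genotypes. A further 7 members passed in knockout hearts only, Acsl4 and Slc25a20 higher and Crat, Acadm, Eci1, Ech1 and Etfb lower, but no member passed the test of the difference between the 2 responses. Arrays of LPS and saline did not overlap for 5 members in wild-type hearts (22.8% of all genes) and for 10 in knockout hearts (28.5% of all genes).

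**Figure D1:**
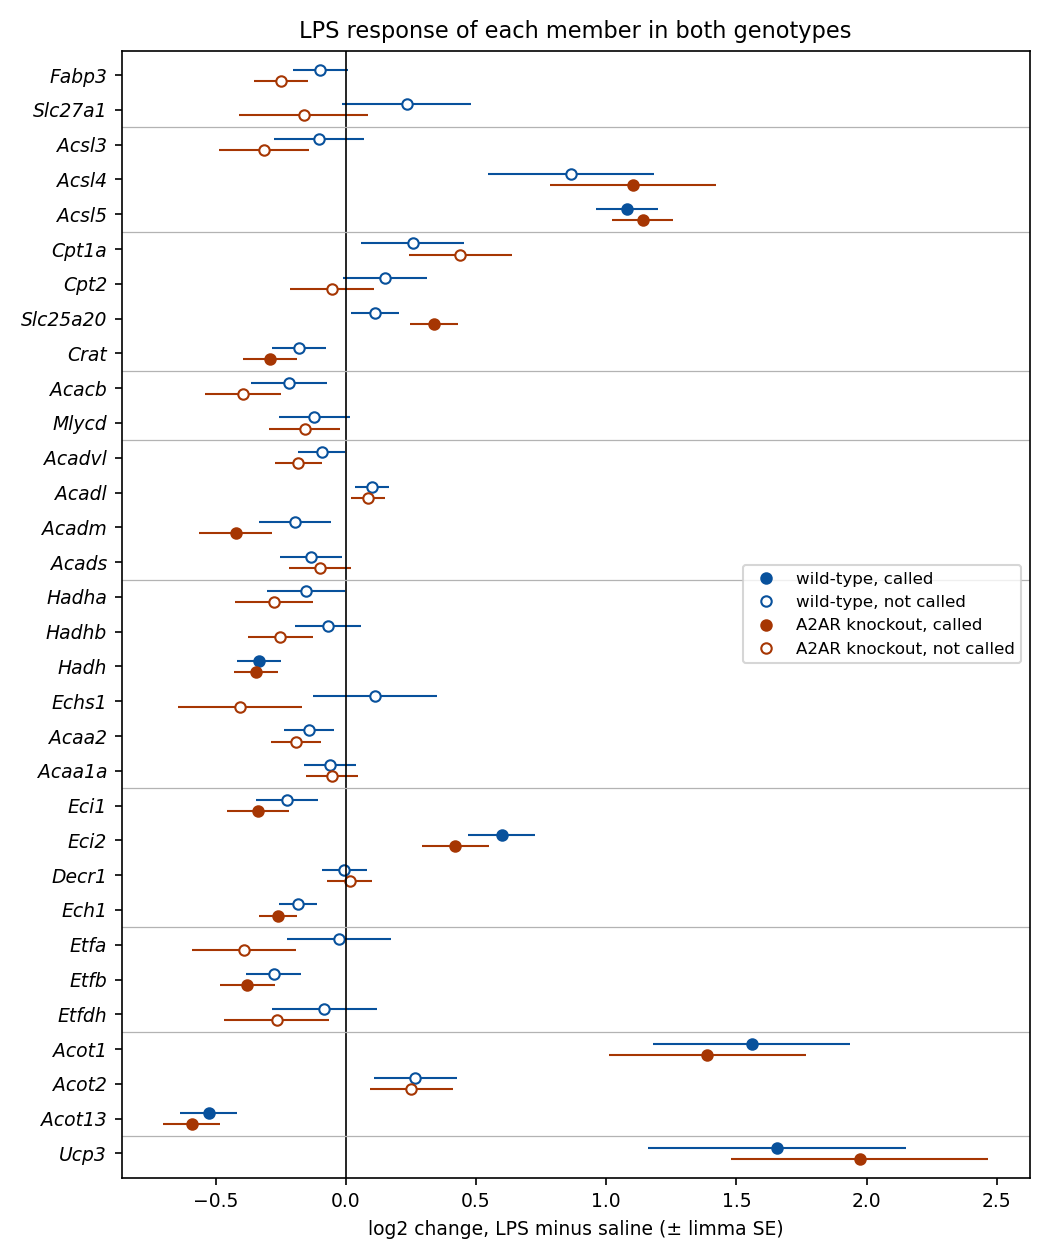
Log2 change with LPS for each of the 32 members, ordered by role, in wild-type (blue) and A2AR knockout (brown) hearts, with bars of 1 limma standard error. Filled points passed the test at an adjusted p under 0.05. Acsl4, Acsl5, Acot1 and Ucp3 lie furthest to the right and Acot13 furthest to the left.

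Of the 3 measured acyl-CoA synthetases, Acsl5 passed in both genotypes, Acsl4 in knockout hearts only and Acsl3 in neither. Acsl5, a long-chain synthetase, read 7.73, 7.61, 7.76 and 7.92 on the wild-type saline arrays and 8.58, 9.09, 8.77 and 8.89 after LPS. The knockout arrays read 7.92, 7.65, 7.75 and 7.69 after saline and 9.04, 8.79, 8.98 and 8.77 after LPS. Every LPS array lay above every saline array. The change was 1.08 ± 0.12 (log2, limma SE, adjusted p = 5.32e-06) in wild-type and 1.14 ± 0.12 (adjusted p = 2.56e-06) in knockout hearts, or 2.12-fold and 2.20-fold.

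Acsl4, the synthetase that prefers arachidonic acid, read 6.73, 6.58, 6.96 and 6.93 after saline in wild-type hearts. After LPS it read 7.67, 8.33 and 8.34 on wild-type arrays 1 to 3 and 6.32 on array 4, which was below all the saline arrays. The knockout values were 6.99, 6.83, 6.80 and 6.95 after saline and 8.16, 8.35, 7.86 and 7.60 after LPS, with no overlap. The knockout change of 1.10 ± 0.32 passed the test (adjusted p = 0.0161), while the wild-type change of 0.86 ± 0.32 did not (adjusted p = 0.065). With wild-type LPS array 4 left out, the change was 1.31 and passed (adjusted p = 4.12e-05). Acsl3 lay near the median of all values, with group means from 4.31 to 4.63, and its changes of -0.10 ± 0.17 and -0.31 ± 0.17 did not pass.

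The fatty acid carriers did not pass in either genotype. Fabp3, the cytosolic carrier of heart muscle, had group means of 13.81 ± 0.05 (SD, n = 4) and 13.71 ± 0.11 in wild-type saline and LPS hearts, and 13.83 ± 0.07 and 13.58 ± 0.29 in the knockout. Its lowest value, 13.15, was on knockout LPS array 2. Without knockout LPS array 4, Fabp3 passed in knockout hearts and for the mean of both genotypes. It also passed for that mean without wild-type LPS array 4 and knockout LPS array 2 together. Slc27a1, a membrane transport protein with synthetase activity, had changes of 0.23 ± 0.25 in the wild type and -0.16 ± 0.25 in the knockout, and its knockout LPS arrays spread from 7.78 to 9.15.

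Among the 4 measured genes of carnitine transfer, none passed in wild-type hearts and 2 passed in knockout hearts, 1 in each direction. Slc25a20, which exchanges acylcarnitine for carnitine across the inner membrane, read 10.91, 10.94, 10.74 and 11.07 in knockout saline hearts and 11.32, 11.16, 11.18 and 11.35 after LPS. These arrays did not overlap, and the change of 0.34 ± 0.09 passed (adjusted p = 0.0114). In wild-type hearts the LPS arrays split, with 11.27 on arrays 1 and 2 and 10.97 and 10.96 on arrays 3 and 4, against 10.97 to 11.07 after saline, and the change of 0.11 ± 0.09 did not pass. A second probe set of Slc25a20 changed by 0.15 ± 0.22 and 0.06 ± 0.22, so the call rests on the brighter set.

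Cpt1a, the liver form of carnitine palmitoyltransferase 1 that the heart also carries, had wild-type LPS values of 8.42, 8.46 and 8.36 on arrays 1 to 3 and 7.38 on array 4. The wild-type saline arrays ran from 7.71 to 8.23, so array 4 lay below them and the other 3 above. In knockout hearts the LPS arrays (8.32 to 8.66) lay just above the saline arrays (7.95 to 8.30). The changes of 0.26 ± 0.20 and 0.44 ± 0.20 did not pass (adjusted p = 0.433 and 0.119). With wild-type LPS array 4 left out, both passed, at 0.52 (adjusted p = 0.00594) and 0.44 (adjusted p = 0.00952), since the spread is shared by all groups.

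Cpt2, which returns the acyl group to CoA inside the mitochondrion, changed by 0.15 ± 0.16 and -0.05 ± 0.16 and did not pass. Its knockout LPS arrays spread from 10.52 on array 2 to 11.58 on array 4. Crat, which moves short acyl groups between CoA and carnitine, changed by -0.18 ± 0.10 in the wild type and by -0.29 ± 0.10 in the knockout. The knockout value passed at an adjusted p of 0.0497 and did not pass in 19 of 27 alternative settings, with a largest adjusted p of 0.187, and 1 knockout saline array (10.21) lay below the highest LPS array (10.28).

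Of the 2 malonyl-CoA genes, neither passed in a single genotype, and Acacb passed for the mean of both. Acacb, the mitochondrial acetyl-CoA carboxylase of muscle, read 9.68 to 9.77 in knockout saline hearts and 9.25, 9.35, 9.11 and 9.62 after LPS, with no overlap. In wild-type hearts 3 LPS arrays read 9.57, 9.25 and 9.34, below the saline range of 9.73 to 9.81, and array 4 read 10.07, above it. The adjusted p of Acacb was 0.347 in the wild type and 0.0551 in the knockout, and the mean change of -0.31 ± 0.10 passed (adjusted p = 0.0273). That call was lost without wild-type LPS array 2 or 3, without knockout LPS array 1 or 3, and without wild-type saline arrays 1 and 4 together, where the adjusted p was largest (0.0794). Mlycd, malonyl-CoA decarboxylase, changed by -0.12 ± 0.14 and -0.16 ± 0.14 and did not pass.

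**Figure D2:**
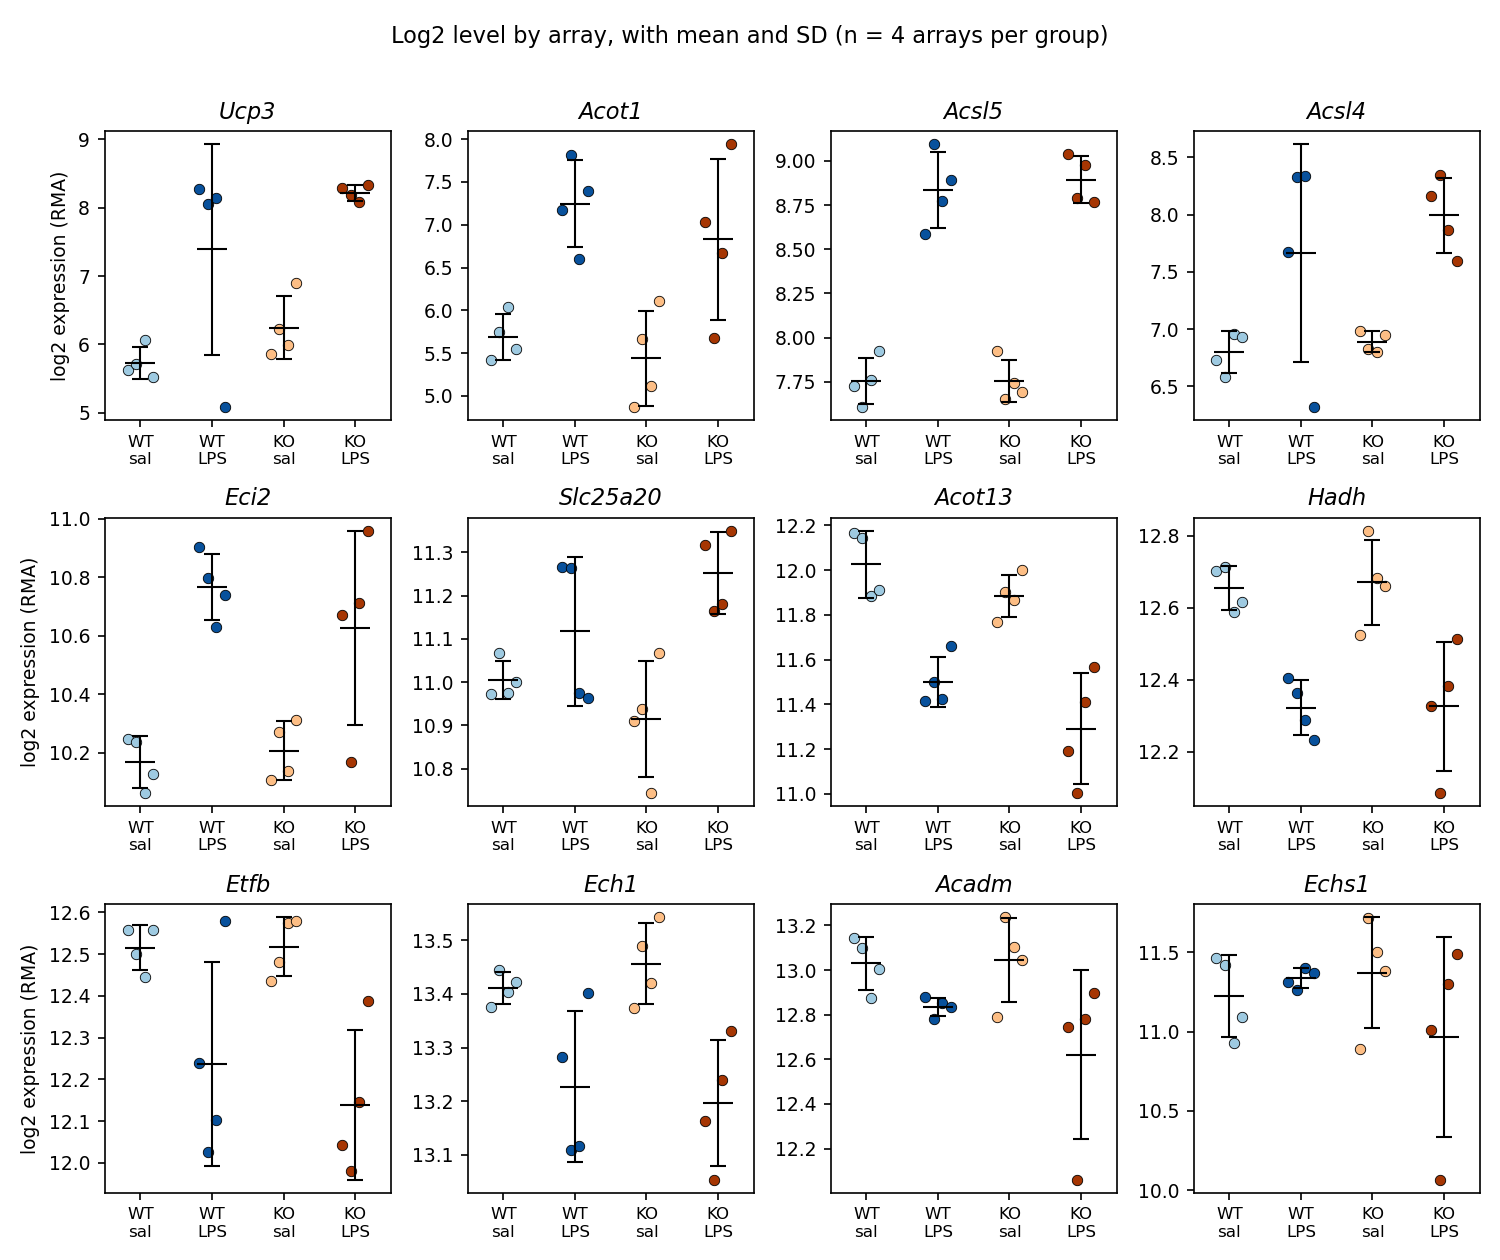
Log2 level of 12 members on each array (points), with the group mean and SD (bars, n = 4 arrays per group). Wild-type LPS array 4 is the low point of Ucp3 (5.08) and Acsl4 (6.32), and knockout LPS array 2 is the low point of Acadm (12.06) and Echs1 (10.07).

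Promoter sequence was searched for letters bound by the PPAR and oestrogen-related receptors, nuclear receptors known to drive this pathway. The windows are the 250 bases before each RefSeq start site in the mouse build GRCm38.p6, and 28 of the 32 members matched, with 30 windows. Both strands were searched for AGGTCA, for the extended AAGGTCA (which contains it), and for DR1, a direct repeat of AGGTCA with a 1-base spacer, allowing 3 mismatches at its 12 fixed bases, so that it can overlap the others. AGGTCA was found in 16.7% of member windows against 14.0% of all 32851 windows, and AAGGTCA in 3.33% against 4.08%. DR1 was found in 36.7% of member windows against 21.3% of all windows, and 11 members held it. A match is a description of letters and not a site of binding.

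Of the 4 acyl-CoA dehydrogenases, which take the opening step of each round for chains of falling length (Acadvl, Acadl, Acadm, Acads), only Acadm passed, and only in knockout hearts. Acadm, the medium-chain enzyme, read 13.14, 13.10, 12.88 and 13.01 in wild-type saline hearts and 12.88, 12.78, 12.85 and 12.83 after LPS. In knockout hearts it read 12.79, 13.24, 13.11 and 13.05 after saline and 12.74, 12.06, 12.78 and 12.90 after LPS. The ranges overlapped in both genotypes. The knockout change of -0.42 ± 0.14 passed (adjusted p = 0.033) and the wild-type change of -0.20 ± 0.14 did not (adjusted p = 0.389). Without knockout LPS array 2, the array at 12.06, the knockout change was -0.24 and no longer passed (adjusted p = 0.0674). The call was also lost without knockout saline array 2, 3 or 4, without wild-type saline arrays 1 and 4 together (adjusted p = 0.0519), with a replicate block (adjusted p = 0.0511) and in a fit of the knockout groups alone, with an adjusted p of at most 0.105 over all alternatives. The Acadm window is shown because it alone among the members held AAGGTCA. It covers chr3:153944644-153944893 on the minus strand, upstream of the gene, and capitals mark a DR1 match with 3 mismatches that begins 249 bases before the start site and includes the reverse complement of AAGGTCA.
Acadm: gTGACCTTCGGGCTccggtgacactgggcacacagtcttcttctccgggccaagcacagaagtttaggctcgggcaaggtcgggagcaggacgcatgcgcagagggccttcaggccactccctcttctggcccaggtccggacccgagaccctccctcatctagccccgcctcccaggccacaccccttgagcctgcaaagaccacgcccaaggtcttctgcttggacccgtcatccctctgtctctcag

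The other 3 dehydrogenases moved little. Acadvl, the very-long-chain enzyme, had changes of -0.09 ± 0.09 and -0.18 ± 0.09. Acadl, the long-chain enzyme, had changes of 0.10 ± 0.07 and 0.08 ± 0.07, the narrowest errors of all members. Acads, the short-chain enzyme, had changes of -0.14 ± 0.12 and -0.10 ± 0.12, and its wild-type LPS arrays read 9.42, 9.31 and 9.43 but 9.99 on array 4. Without that array the wild-type change of Acads was -0.29 and passed (adjusted p = 0.0101).

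Of the 6 genes for hydratase, hydroxyacyl-CoA dehydrogenase and thiolase steps, Hadh alone passed. Hadh, the dehydrogenase for medium and short chains, read 12.70, 12.71, 12.59 and 12.62 in wild-type saline hearts and 12.40, 12.36, 12.29 and 12.23 after LPS. The knockout arrays read 12.53, 12.81, 12.68 and 12.66 after saline and 12.33, 12.08, 12.38 and 12.51 after LPS. Neither pair of groups overlapped, although the lowest knockout saline array (12.53) lay just above the highest LPS array (12.51). The changes were -0.33 ± 0.08 (adjusted p = 0.00891) and -0.34 ± 0.08 (adjusted p = 0.006), or 1.26-fold and 1.27-fold lower. Without wild-type saline arrays 1 and 4 the wild-type change did not pass (adjusted p = 0.0766). The probe set used for Hadh carries the x suffix, by which Affymetrix marks sets with probes that may match other transcripts. A second bright set changed by -0.28 ± 0.18 and -0.46 ± 0.18 and did not pass in either genotype.

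Hadha and Hadhb encode the subunits of the mitochondrial trifunctional protein, which carries out the last 3 steps for long chains. Hadha changed by -0.15 ± 0.15 and -0.28 ± 0.15 and Hadhb by -0.07 ± 0.13 and -0.25 ± 0.13, none of which passed. Their genes start back to back on opposite strands of chromosome 5, and their windows share 228 of 250 bases, which is why the window is shown. The Hadhb window covers chr5:30155003-30155252 on the plus strand and held none of the 3 motifs, so it has no capitals.
Hadhb: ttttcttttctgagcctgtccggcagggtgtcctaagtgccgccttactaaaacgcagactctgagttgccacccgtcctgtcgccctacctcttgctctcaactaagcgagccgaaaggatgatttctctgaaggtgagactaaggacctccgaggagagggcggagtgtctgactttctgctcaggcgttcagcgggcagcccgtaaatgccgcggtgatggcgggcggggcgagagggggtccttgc

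Echs1, the short-chain hydratase, had opposite signs in the genotypes, 0.11 ± 0.24 and -0.41 ± 0.24, with neither passing. Its knockout LPS arrays read 11.01, 10.07, 11.30 and 11.49, and without array 2 the knockout change was -0.11. The thiolases changed little, with -0.14 ± 0.10 and -0.19 ± 0.10 for the mitochondrial Acaa2 and -0.06 ± 0.10 and -0.05 ± 0.10 for the peroxisomal Acaa1a. Acaa1a has a near-identical neighbour, Acaa1b, with which it shares probe sets annotated with both names, so its values are uncertain.

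Enzymes that prepare unsaturated chains for oxidation went in different directions. Eci2, an enoyl-CoA isomerase of mitochondria and peroxisomes, read 10.25, 10.24, 10.06 and 10.13 in wild-type saline hearts and 10.90, 10.80, 10.63 and 10.74 after LPS, with no overlap. In knockout hearts it read 10.11, 10.27, 10.14 and 10.31 after saline and 10.67, 10.17, 10.71 and 10.96 after LPS, where array 2 fell among the saline arrays. The changes were 0.60 ± 0.13 (adjusted p = 0.00268) and 0.42 ± 0.13 (adjusted p = 0.0224), or 1.51-fold and 1.34-fold higher. The knockout call was lost when any of knockout saline arrays 1 and 3 or knockout LPS arrays 1, 3 and 4 was left out, with a largest adjusted p of 0.0702.

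Eci1, the mitochondrial isomerase, changed the other way, by -0.22 ± 0.12 in wild-type hearts (adjusted p = 0.22) and by -0.34 ± 0.12 in knockout hearts (adjusted p = 0.047). The knockout call was lost in 20 of 27 alternative settings, with a largest adjusted p of 0.148. Ech1, a dienoyl-CoA isomerase, read 13.37, 13.49, 13.42 and 13.54 in knockout saline hearts and 13.16, 13.05, 13.24 and 13.33 after LPS, with no overlap, a change of -0.26 ± 0.07 (adjusted p = 0.0135). In wild-type hearts Ech1 changed by -0.18 ± 0.07 and did not pass (adjusted p = 0.0879), with array 4 (13.40) among the saline arrays. Decr1, the dienoyl-CoA reductase, did not pass, with changes of -0.01 ± 0.09 and 0.01 ± 0.09.

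Electrons from the acyl-CoA dehydrogenases pass through the electron transfer flavoprotein, of which Etfa and Etfb are the subunits, to its dehydrogenase Etfdh and the respiratory chain. Etfb read 12.44, 12.48, 12.57 and 12.58 in knockout saline hearts and 12.04, 11.98, 12.14 and 12.39 after LPS. These arrays did not overlap, and the change was -0.38 ± 0.11 (adjusted p = 0.0136). In wild-type hearts Etfb read 12.24, 12.03, 12.10 and 12.58 after LPS against 12.45 to 12.56 after saline, so that array 4 was above all saline arrays, and the change of -0.28 ± 0.11 did not pass (adjusted p = 0.0759). Without array 4 it was -0.39 (adjusted p = 0.00268). Etfa and Etfdh did not pass, with wild-type changes of -0.02 ± 0.20 and -0.08 ± 0.20 and knockout changes of -0.39 ± 0.20 and -0.27 ± 0.20, and both were lowest on knockout LPS array 2 (11.02 and 10.93).

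The 3 measured thioesterases each behaved differently. Acot13, a mitochondrial thioesterase of the hotdog-fold family, read 12.17, 12.14, 11.88 and 11.91 in wild-type saline hearts and 11.42, 11.50, 11.42 and 11.66 after LPS. In knockout hearts it read 11.77, 11.90, 11.87 and 12 after saline and 11.19, 11.00, 11.41 and 11.56 after LPS. No LPS array of either genotype reached the saline arrays of that genotype. The changes were -0.53 ± 0.11 (adjusted p = 0.00224) and -0.59 ± 0.11 (adjusted p = 0.000731), the most negative of all members in both genotypes, or 1.44-fold and 1.51-fold lower.

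Acot1, the cytosolic thioesterase, read 5.42, 5.74, 6.04 and 5.55 in wild-type saline hearts and 7.17, 7.82, 6.60 and 7.40 after LPS, with no overlap. In knockout hearts it read 4.87, 5.66, 5.11 and 6.11 after saline and 7.03, 5.67, 6.67 and 7.94 after LPS, where array 2 lay inside the saline range. The changes were 1.56 ± 0.38 (adjusted p = 0.00651) and 1.39 ± 0.38 (adjusted p = 0.0114), or 2.95-fold and 2.62-fold. Without wild-type saline arrays 1 and 4 the wild-type change was 1.36 and did not pass (adjusted p = 0.0925). Acot2, its mitochondrial paralog, changed by 0.27 ± 0.16 and 0.25 ± 0.16 and did not pass. The 2 genes are near-identical in sequence and a further probe set is annotated with both, so the split between them is uncertain. Their windows are shown to set the neighbours side by side. Both lie on the plus strand of chromosome 12, Acot1 at chr12:84009252-84009501 and Acot2 at chr12:83987611-83987860. The Acot1 window held none of the motifs, and capitals in the Acot2 window mark a DR1 match with 3 mismatches that begins 58 bases before the start site.
Acot1: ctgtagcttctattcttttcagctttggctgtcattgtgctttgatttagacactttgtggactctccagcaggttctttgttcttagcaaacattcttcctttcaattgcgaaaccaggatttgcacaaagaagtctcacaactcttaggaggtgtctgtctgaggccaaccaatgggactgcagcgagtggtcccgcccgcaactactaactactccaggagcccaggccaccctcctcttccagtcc
Acot2: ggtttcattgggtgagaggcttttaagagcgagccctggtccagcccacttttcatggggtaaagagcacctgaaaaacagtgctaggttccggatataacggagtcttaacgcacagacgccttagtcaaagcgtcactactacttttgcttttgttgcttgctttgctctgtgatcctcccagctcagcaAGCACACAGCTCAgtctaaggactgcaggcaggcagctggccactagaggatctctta

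Ucp3, a carrier of the inner mitochondrial membrane that rises in muscle when fatty acid supply is high, had the largest change of all members in both genotypes. It read 5.63, 5.71, 6.06 and 5.53 in wild-type saline hearts. After LPS it read 8.27, 8.06 and 8.14 on wild-type arrays 1 to 3 and 5.08 on array 4, below every saline array. In knockout hearts it read 5.86, 6.23, 5.995 and 6.90 after saline and 8.29, 8.18, 8.08 and 8.34 after LPS, with no overlap. The changes were 1.66 ± 0.50 (adjusted p = 0.0237) and 1.97 ± 0.50 (adjusted p = 0.0068), or 3.15-fold and 3.93-fold.

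The wild-type change of Ucp3 was 2.42 without wild-type LPS array 4 (adjusted p = 1.14e-07). Its call was lost in 8 of 27 alternative settings, among them when any of wild-type saline arrays 1, 2 and 4 or wild-type LPS arrays 1, 2 and 3 was left out. Without wild-type saline arrays 1 and 4 together, the arrays with high skeletal muscle markers, the change was 1.5 (adjusted p = 0.167). Those 2 arrays read 5.63 and 5.53 for Ucp3, and the other wild-type saline arrays read 5.71 and 6.06. A second Ucp3 probe set changed by 1.43 ± 0.30 and 1.51 ± 0.30. The Ucp3 window is shown because this gene moved most and held 2 copies of AGGTCA. It covers chr7:100472741-100472990 on the plus strand, upstream of the gene, and capitals mark a lone AGGTCA and a DR1 match with 2 mismatches that begins 51 bases before the start site and ends with the other AGGTCA.
Ucp3: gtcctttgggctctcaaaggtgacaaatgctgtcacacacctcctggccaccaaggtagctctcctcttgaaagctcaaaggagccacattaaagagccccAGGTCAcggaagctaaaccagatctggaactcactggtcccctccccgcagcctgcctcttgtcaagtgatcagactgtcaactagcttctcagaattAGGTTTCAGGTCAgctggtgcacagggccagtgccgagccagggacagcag

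**Figure D3:**
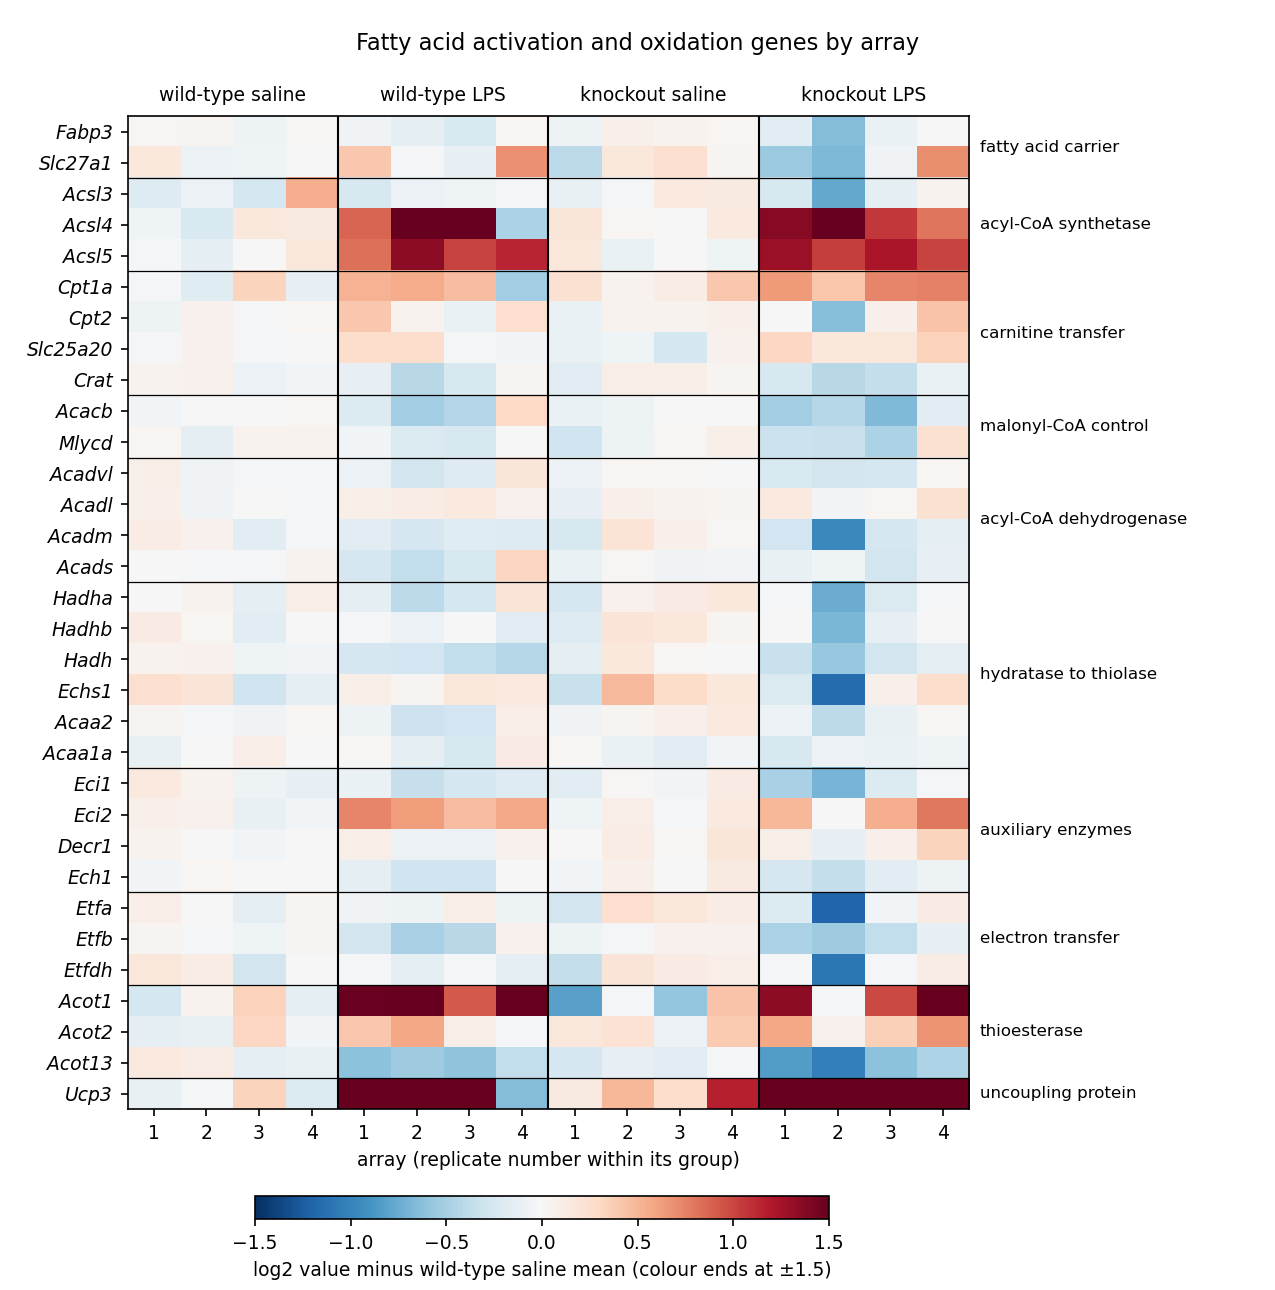
Log2 value of each member (rows, grouped by role) on each of the 16 arrays (columns), shown as the difference from that member's wild-type saline mean, with the colour scale ending at 1.5 either way. Acsl4, Acsl5, Acot1 and Ucp3 are raised on most LPS arrays, and wild-type LPS array 4 departs for Ucp3 and Acsl4.

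The genotype itself moved no member past the test. Knockout against wild-type gave 0 of 32 members after saline and 0 of 32 after LPS with limma, and none had an unadjusted p under 0.05 in either comparison. Over all genes, 0.0055% were called in each. The smallest adjusted p among members was 1 after saline and 0.684 after LPS. After LPS, Ucp3 differed most in the positive direction, by 0.83 with a 95% interval from -0.22 to 1.88, and Acot1 most in the negative direction, by -0.42 with an interval from -1.22 to 0.38. Interval half-widths ran from 0.14 for Acadl to 1.05 for Ucp3 with a median of 0.27, so differences of that size could have gone undetected. Signs were uneven after LPS, with 23 of 32 members lower in the knockout against 53.9% of all genes, and the median difference was -0.10 against -0.01 over all genes. After saline they were uneven the other way, with 10 of 32 lower against 51.8% of all genes. Members shifted together on single arrays, and knockout LPS array 2 was the lowest of its group for 25 of 32. The sign counts therefore do not rest on independent members and were not tested.

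The test of the difference between the LPS responses (the interaction) also gave 0 of 32 members with limma, with 0 at an unadjusted p under 0.05 and a smallest adjusted p of 0.959. No gene of all 18193 was called, which is 0%. For the members called in knockout hearts alone, the difference of responses was 0.24 ± 0.45 for Acsl4, 0.23 ± 0.13 for Slc25a20, -0.23 ± 0.20 for Acadm, -0.11 ± 0.15 for Crat, -0.11 ± 0.17 for Eci1, -0.08 ± 0.10 for Ech1 and -0.10 ± 0.15 for Etfb. Every one of these 95% intervals spans 0. The half-widths of these intervals over all members ran from 0.20 to 1.48 with a median of 0.38.

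Arrays within a group differed for many members at once. Knockout LPS array 2 was the lowest of its group for 25 of 32 members, against 35% of all genes, with a median distance of -0.33 from the mean of the other 3 arrays. Knockout LPS array 4 was the highest for 28 of 32, against 28.1% of all genes, with a median distance of 0.31. Knockout saline array 1 was the lowest for 26 of 32, against 30.9%, with a median distance of -0.16. On knockout LPS array 2 the marker means of cardiomyocytes (13.39), fibroblasts (8.97) and macrophages (7.05) were the lowest of all 16 arrays, and their part in the low member values was not tested. Wild-type LPS array 4 was lowest for 10 members and highest for 14.

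**Figure D4:**
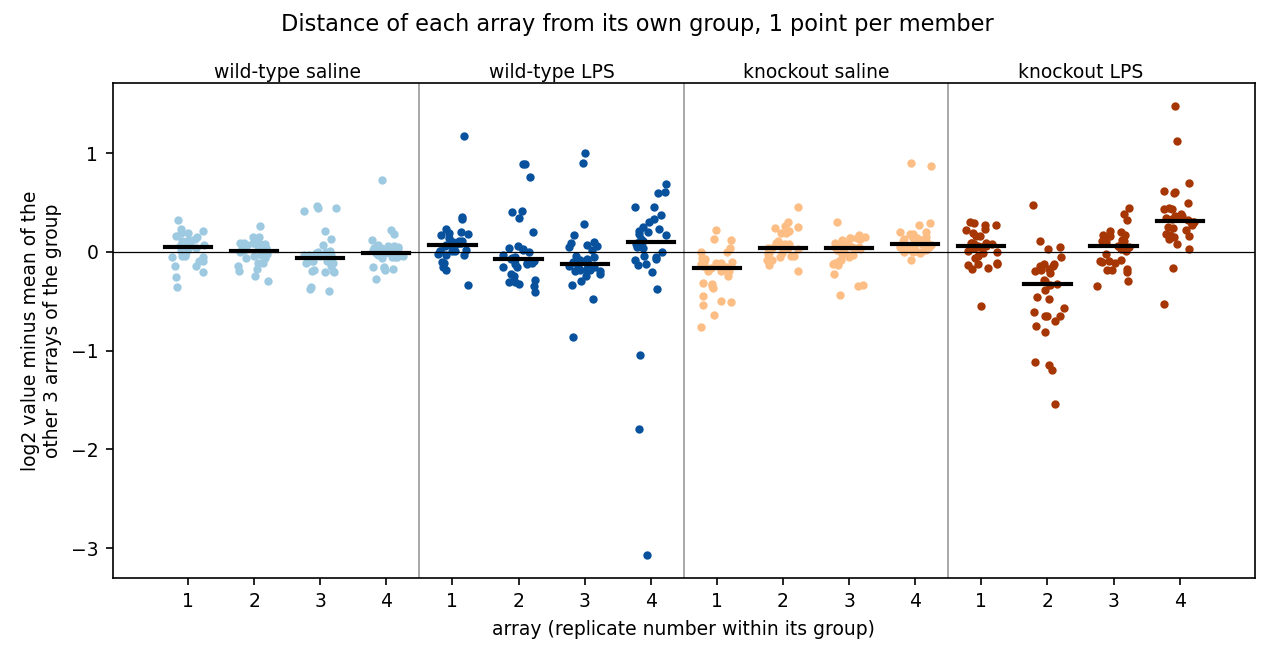
Distance of each array from the mean of the other 3 arrays of its group, in log2 units, with 1 point per member. Knockout LPS arrays 2 and 4 lie to opposite sides (medians -0.33 and 0.31), and knockout saline array 1 lies low (median -0.16).

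Wild-type LPS array 4 and knockout LPS array 2 were also left out together, a choice made after the data were seen. Then 15 members passed in wild-type hearts, 12 in knockout hearts and 22 in the mean of both. The shares of all genes called were 31.5%, 29.5% and 40.9%. All 6 wild-type calls were kept, and Acsl4, Cpt1a, Crat, Acacb, Acads, Hadha, Acaa2, Ech1 and Etfb were added. In knockout hearts 10 of the 13 calls were kept, Acadm, Crat and Eci1 were lost, and Cpt1a and Acacb were added. The interaction still gave 0 members.

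Other probe sets of the same genes were compared where they exist. The 32 members had 57 probe sets, and 18 members had more than 1. Of the 25 sets not used, 20 had the same sign as the set used for the mean LPS change, as had 13 of the 16 that lay above the median of all values. Hadhb had a dimmer set at 0.27 ± 0.17 against -0.16 ± 0.09 for the set used. A more variable set of Etfdh changed by 0.22 in the wild type and 0.31 in the knockout, against -0.08 and -0.27. Such sets also had the opposite sign for Fabp3 (0.23) and Decr1 (-0.26) in the knockout. They did so for Acaa2 (0.33), Acadl (-0.11) and Acaa1a (0.004) in the wild type, and for Slc27a1 (-0.17) in the mean of both genotypes. None of these changes passed, so the directions of these genes depend on the probe set. For Acsl4, the other sets changed by 0.79 ± 0.32 and 0.86 ± 0.24 in the wild type and by 0.54 ± 0.32 and 0.77 ± 0.24 in the knockout.

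**Figure D5:**
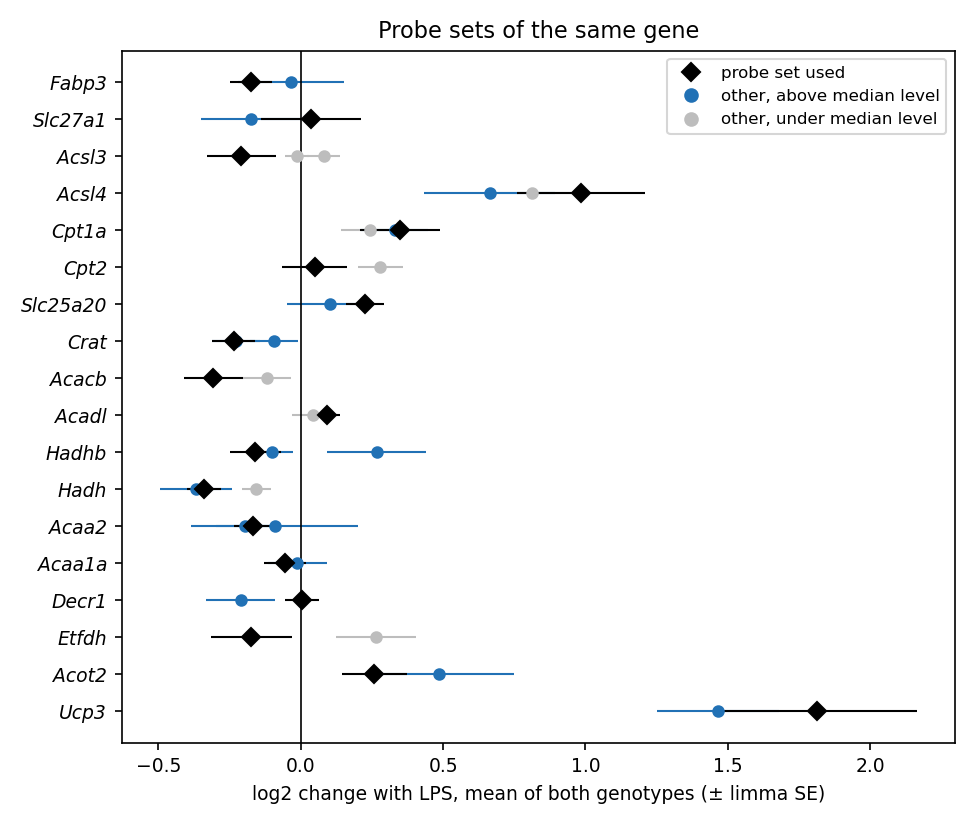
Log2 change with LPS (mean of both genotypes, with bars of 1 limma standard error) for every probe set of the 18 members with more than 1. Diamonds are the sets used, blue circles are other sets above the median of all values (4.64), and grey circles are sets under it. Both Ucp3 sets lie to the right of 0 and all 3 Acsl4 sets do as well.

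Genes around the pathway were counted from lists chosen together with the members, with earlier results of these data known. Their counts are a description and not independent evidence. Apart from Ppara and Ppargc1a, the genes named are called genes with the largest changes of their list. Among 18 regulators of the PPAR, ERR and PGC-1 families, 9 fell and 1 rose in the mean of both genotypes, against 19.5% and 15.4% of all genes. Ppara, the receptor for fatty acids that drives oxidation genes, changed by -1.05 ± 0.22 (adjusted p = 0.00254) in wild-type and -0.65 ± 0.22 (adjusted p = 0.0427) in knockout hearts. Its coactivator Ppargc1a changed by -2.23 ± 0.34 (adjusted p = 0.000143) and -1.35 ± 0.34 (adjusted p = 0.00684). Of 10 other genes known to respond to PPARs, 7 rose and none fell, among them Angptl4, an inhibitor of lipoprotein lipase (3.85 ± 0.64 and 4.51 ± 0.64), and Pdk4, which restrains glucose oxidation (1.87 ± 0.38 and 2.17 ± 0.38). Wild-type LPS array 4, the array that was low for Ucp3, read 6.62 for Angptl4 against 10.40, 10.44 and 10.22 on the other 3 wild-type LPS arrays, and 12.34 for Pdk4 against 13.75, 13.63 and 13.67. The wild-type saline arrays ran from 4.93 to 5.91 for Angptl4 and from 10.60 to 12.63 for Pdk4.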

How the data were processed

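Ventricular RNA was measured on 16 Affymetrix arrays, 4 per group. The deposited values are log2 probe set intensities, made by the authors with RMA (background correction, quantile normalization and probe summary) per the submitters' processing notes; its version is not given in the sources used here. Quantile normalization gives all arrays a like distribution, so changes are relative to it. Probe sets were named through the platform annotation: 34945 of 45101 carried a single symbol and 932 several, 9160 were unnamed, 64 were controls, and 34741 of the single-symbol sets matched an Entrez identifier. Precision is limited by the number of arrays, since array values carry no depth.

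For 18193 genes, group means were fitted in a linear model with limma 3.58.1 in R 4.3.3 (moderated variances with an intensity trend, 12 residual degrees of freedom), with two-sided tests and Benjamini-Hochberg adjustment over all genes. LPS was compared with saline in each genotype and for the mean of both, knockout with wild-type after each treatment, and the responses of the genotypes with each other (the interaction). Comparisons that share a group of arrays are not independent of each other. Probe sets of the same gene were compared in a fit over all single-symbol sets. From each list of related genes, at most 4 called genes with the largest mean LPS change, and Ppara and Ppargc1a, could be named. Members and lists were chosen with earlier results of these data known. Alternatives covered the choice of probe set, normalization, variance model, thresholds, a replicate block and left-out arrays. Promoter windows come from RefSeq, GRCm38.p6. Protein sequences were not used here.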

Additional observations from a re-analysis of the deposited data

Results flagged for a closer look

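In 8 of the 128 groups tested (32 members in 4 groups of 4 arrays), 1 array lay far from the other 3 by Dixon's criterion, which chance flags in about 1 in 20 groups. On wild-type LPS array 4, Ucp3 read 5.085 against 8.058 to 8.271 on the others, and Cpt1a read 7.376 against 8.364 to 8.460. Etfdh read 10.927 on knockout LPS array 2 against 11.985 to 12.127. Knockout LPS array 4 was high for Acadvl, at 12.729 against 12.423 to 12.465. Knockout saline array 1 was low for Cpt2, at 11.054 against 11.209 to 11.238, and for Acadl, at 12.684 against 12.855 to 12.885. Mlycd read 8.520 on wild-type saline array 2 against 8.686 to 8.706. Etfa read 12.307 on wild-type LPS array 3 against 12.123 to 12.154.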

How the results depend on the processing

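Counts of members called moved by over 1.5 times under the following settings, and the cause was not tested. In wild-type hearts the 6 calls became 15 with array weights, against 29.9% of all genes. They became 12 without wild-type LPS array 4, against 26.9%. Without wild-type saline arrays 1 and 4 together they became 3 (Acot1, Hadh and Ucp3 lost), against 11.3%. Without wild-type LPS array 4 and knockout LPS array 2 together, a setting chosen after seeing the data, they became 15, against 31.5%. In knockout hearts the 13 calls became 4 at an adjusted p under 0.01, against 16.3% of all genes. They became 5 when a fold of at least 1.5 was asked beside an adjusted p under 0.05, against 15.2%. For the mean of both genotypes the 14 calls became 9 without wild-type saline arrays 1 and 4, against 28.2% of all genes. They became 22 without the array pair chosen after seeing the data, against 40.9%. At an adjusted p under 0.01 they became 9, against 25.5%, and with the fold of at least 1.5 they became 4, against 14.1%. Leaving out each array in turn gave 5 to 12 members in wild-type hearts, 9 to 15 in knockout hearts and 13 to 20 for the mean. Knockout against wild-type and the interaction gave 0 members under every setting run. No member called in a comparison changed direction in any of these settings. Replicate numbers are shared between groups, but over 24 pairs of same-numbered arrays the correlation of deviations ran from -0.27 to 0.33 and 3 were over 0.1, so the numbers were not taken as pairs. A fit with the replicate number as a block gave 7, 11 and 15 members for wild-type, knockout and the mean. The shares of all genes called in that fit were 19.4%, 24.7% and 33.6%. It gave 0 members for the other comparisons.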

Other observations

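Ketone body use and malonyl-CoA control lie beside fatty acid oxidation, and their genes are given here as values. All lists under this heading were also chosen with earlier results of these data known, so their counts are a description. Of 5 measured genes of ketone body use, 4 fell and none rose in the mean of both genotypes, against 19.5% and 15.4% of all genes. Bdh1, the mitochondrial dehydrogenase of hydroxybutyrate, changed by -0.82 ± 0.21 (adjusted p = 0.0107) in wild-type and -1.32 ± 0.21 (adjusted p = 0.000218) in knockout hearts. Oxct1, which activates acetoacetate, changed by -0.55 ± 0.10 and -0.63 ± 0.10. Of 11 genes of malonyl-CoA and AMP-activated kinase control, 3 fell, among them the catalytic subunit Prkaa2 (-1.33 ± 0.13 and -1.37 ± 0.13) and the regulatory subunit Prkag2 (-0.60 ± 0.13 and -0.65 ± 0.13).

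In the mean of both genotypes, 19.5% of all genes fell and 15.4% rose. Of 13 measured genes of peroxisomal oxidation, 4 fell and 1 rose in that comparison. Of 24 further thioesterases, synthetases, dehydrogenases and carriers, 5 fell and 2 rose, which are shares near and under those of all genes. Acot9, a mitochondrial thioesterase, rose by 1.29 ± 0.19 (adjusted p = 0.000112) and 1.44 ± 0.19 (adjusted p = 3.17e-05). Acad11, an acyl-CoA dehydrogenase, fell in both genotypes, by -0.61 ± 0.20 and -1.10 ± 0.20. Of 22 genes of uptake, esterification and lipolysis, 9 fell and 8 rose, with Plin2, a lipid droplet coat protein, at 1.78 ± 0.15 and 2.20 ± 0.15 and Lpin1, a phosphatidate phosphatase, at -1.55 ± 0.26 and -1.79 ± 0.26. The interaction gave 0 calls in these lists with limma.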
